A study of Bos taurus with 8 samples.

Results

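The Krüppel-like factors (KLF) are transcription factors that bind GC-rich and CACCC sequences of promoters through zinc fingers at their C-terminus, while their N-terminal parts recruit activators or repressors. In fat, members of the family act on the same steps of the adipogenic programme from opposite sides. Some switch on the C/EBP genes or *PPARG*, the master regulator of adipocyte formation, and others repress the same genes. The 10 members described here are *KLF2*, *KLF3*, *KLF4*, *KLF5*, *KLF6*, *KLF9*, *KLF10*, *KLF11*, *KLF13* and *KLF15*. They were chosen by name and not by a cut on measured values, although earlier results of these data were known. All 10 were found among the 18872 genes of the count table. Of 7 other KLF symbols that were looked up, 4 were listed.

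RNA-seq counts were compared between 4 intramuscular fat (IMF) and 4 subcutaneous fat (SF) preadipocyte clones. Each clone had been grown from a colony obtained by limiting dilution, which aimed at no more than 1 cell per well. The cells came from the stromal vascular fraction (the non-adipocyte cells released from fat). The fat came from adult Angus cross steers, and the labels and the methods differ on how many. The clones carried no engineered allele, and all were expanded in the same growth medium. The clones had been selected for proliferation, adipogenic potential and fibroblast-like shape, so each stands for a chosen colony and not for the whole depot. The study's methods describe RNA from proliferating cells before full confluence, whereas the deposited design text places adipogenic induction before sequencing, so the stage of the cells at harvest cannot be told from the sources. The study's induction medium contained insulin, dexamethasone, IBMX and rosiglitazone. Whether these compounds had a part in the differences given here was not tested. Which animal gave which clone was not given in the sources used here, so the p-values measure the spread between clones.

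Total counts were between 19658612 and 29315019 in the IMF clones and between 19983562 and 24872553 in the SF clones, and 3 counts in 1 clone corresponded to 0.0981 to 0.165 CPM (counts scaled to the effective library size). Over all 18339 genes tested, 1618 (8.82%) passed both thresholds, an adjusted p-value under 0.05 together with a log2 fold change of 1 or more in size, with 877 (4.78%) higher and 741 (4.04%) lower in IMF. That is 54.2% of the calls higher in IMF, 66.7% when scaled by total counts alone, 48.9% with DESeq2 and 49.2% without IMF1, so the majority is not stable. The preadipocyte label was checked against markers of this and other lineages. The 9 skeletal muscle markers tested were all higher in IMF clones, with a summed level of 365 to 505 TPM (counts scaled to gene length and library size) in IMF and 0.405 to 14.7 TPM in SF. Their 4 most abundant genes were *MYOD1*, *ACTA1*, *DES* and *MYOG*, and *MYOD1* and *MYOG* had 0 counts in all 4 SF clones. *DES* lost its call without any 1 of the IMF clones or SF3. Of 14 endothelial markers, 13 were higher in IMF, and the list summed to 148 to 176 TPM in IMF and 36.5 to 48.2 TPM in SF. *SOX18*, *KDR* and *EMCN* had 0 counts in every SF clone, while *CLDN5*, the most abundant of the list, overlapped between the groups. *SOX17*, among the 13, passed in 10 of 17 alternatives. *EGFL7*, *CDH5* and *SOX18* followed *CLDN5* in abundance. The 9 leukocyte markers tested summed to 46.6 to 83.4 TPM in IMF and 78.9 to 132 TPM in SF. The most abundant were *TYROBP*, *CD3E*, *LCP1* and *CD3D*, all with negative log2 fold changes, of which *CD3E* passed both thresholds (-1.33, adjusted p = 0.0415), though in only 10 of 17 alternatives, and not without IMF1, IMF2, IMF3, SF1, SF2 or SF4 (adjusted p from 0.0507 to 0.103). *CD14* passed in the other direction (1.48, adjusted p = 0.0026). The 10 preadipocyte markers summed to 462 to 526 TPM in IMF and 557 to 712 TPM in SF, most of it *ITGB1* (339 to 390.2 TPM in IMF and 456 to 580.3 TPM in SF). *PDGFRA*, a defining progenitor marker, was above SF in every IMF clone (log2 fold change 0.49, adjusted p = 0.0214). The most abundant, *ITGB1*, *PDGFRB*, *PDGFRA* and *ATXN1*, were present in all 8 clones, while *CD34* had 216 to 301 counts in the IMF clones and 0 to 2 in the SF clones, and *DLK1* had 0 counts in IMF2. Muscle, endothelial and leukocyte markers were thus present together in each IMF library, and whether a clone held a single cell lineage was not tested. In these bulk libraries, fewer cells of a type and less RNA per cell cannot be told apart. The muscle and endothelial markers, and some leukocyte markers, moved with the same contrast as every KLF difference given here, and their part in those differences was not tested.

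Of the 10 members, 2 passed both thresholds, *KLF9* and *KLF13*, and both were higher in IMF clones. *KLF9* was 4.68-fold higher (95% interval 4.00 to 5.48) and *KLF13* 2.13-fold higher (95% interval 1.47 to 3.11). The share of 2 in 10 stood beside a background of 8.82% in either direction and 4.78% for higher in IMF. By the adjusted p-value alone, 3 of 10 members passed against a background of 25.8%. Single clones moved this count, to 7 without SF1 and to 5 without SF3, and it was 6 with DESeq2 and 5 with limma-voom on all clones. In 5 of 10 members the 4 IMF values did not overlap the 4 SF values, with IMF above SF in all 5. Of all genes, 32.1% did not overlap in either direction, and 3301 of 18339 had IMF above SF. The median log2 fold change was 0.43 over the members and -0.03 over all genes tested. A positive log2 fold change was found for 7 members and a negative one for 3. Intervals given here are those of each gene's own fit and are not adjusted for the number of genes.

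**Figure D1:**
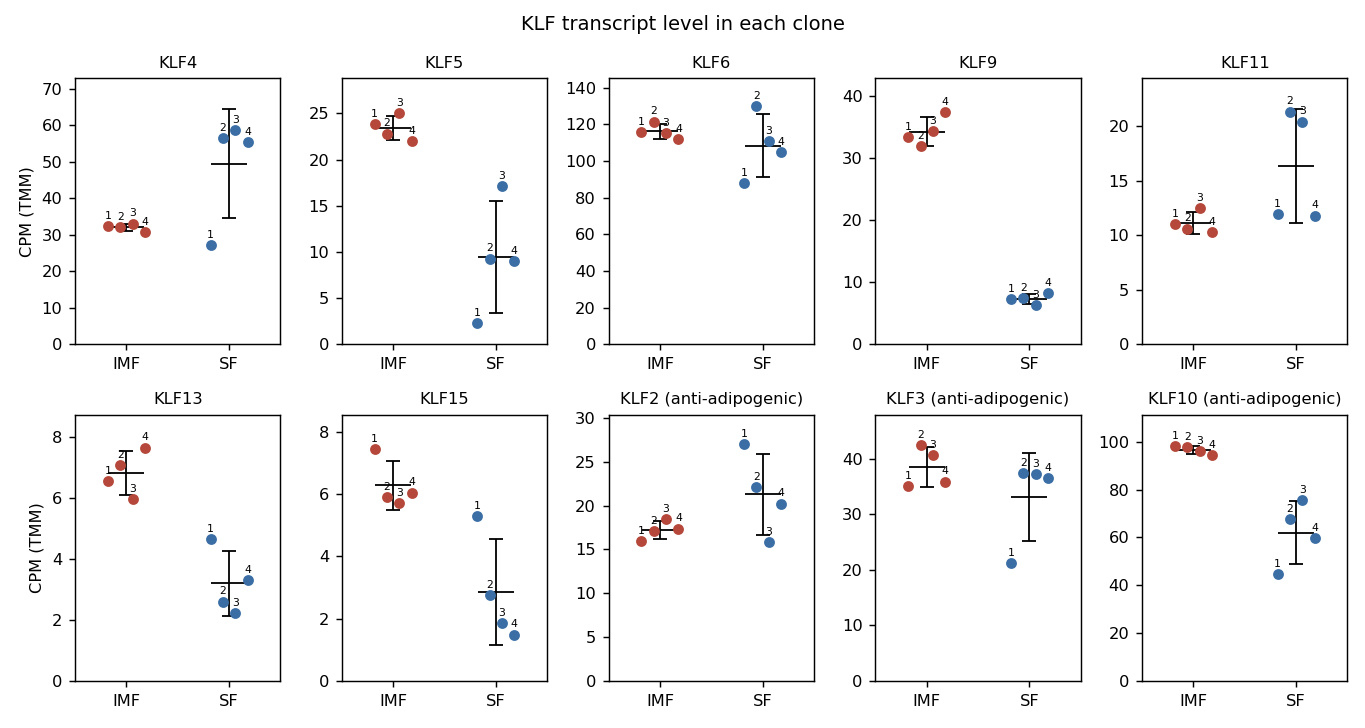
Transcript level of the 10 KLF members in each clone, in CPM after TMM scaling, each panel with its own axis from 0. Points are clones, labelled by clone number, the horizontal line is the group mean and the bar is 1 SD (n = 4). The SF points are more widely spread than the IMF points in every panel but that of *KLF9* (SD 2.32 CPM in IMF and 0.794 CPM in SF). The groups do not overlap in *KLF5*, *KLF9*, *KLF10*, *KLF13* and *KLF15*.

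*KLF9* binds the *PPARG* promoter in the middle phase of adipocyte differentiation and is also a direct target of the glucocorticoid receptor and of thyroid hormone. It lies on chromosome 8, 46512457 to 46611498 (ARS-UCD2.0). *KLF9* had 33.5, 32.0, 34.4 and 37.5 CPM in IMF1 to IMF4, and 7.29, 7.46, 6.33 and 8.27 CPM in SF1 to SF4. All 4 IMF clones were far above all 4 SF clones, with little spread in either group. Mean levels were 34.3 ± 2.32 CPM for IMF and 7.34 ± 0.794 CPM for SF (SD, n = 4). The log2 fold change was 2.23 (SE 0.10, edgeR quasi-likelihood test, adjusted p = 5.04e-06). Only 30 of the genes tested had a smaller p-value, whereas 5.34% had a larger absolute log2 fold change. *KLF9* passed both thresholds in all 17 alternative fits, with a log2 fold change between 2.13 and 2.38. The span annotated for *KLF9* overlaps one end of *SMC5*, a gene of chromosome structure, whose own log2 fold change was 0.33 (SE 0.10, adjusted p = 0.0442). The study's methods name a non-stranded kit and the sample labels a dUTP second strand, so reads in that overlap could not be assigned by strand with certainty.

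*KLF13* is expressed early in adipocyte differentiation and activates *PPARG* in pig preadipocytes. Its gene lies on chromosome 21, 27672086 to 27709653. *KLF13* had 6.57, 7.10, 5.98 and 7.66 CPM in IMF1 to IMF4, and 4.67, 2.60, 2.23 and 3.31 CPM in SF1 to SF4. The groups did not overlap, and SF1 came closest to the IMF clones. IMF exceeded SF by a log2 fold change of 1.09 (SE 0.24, edgeR adjusted p = 0.0108). The call was close to the fold threshold. Without SF3 the log2 fold change was 0.92 (adjusted p = 0.0254), and asking for a difference significantly beyond the fold threshold gave an adjusted p = 1. It passed in the other 15 of 17 alternatives. The values rested on 132 to 217 counts per IMF clone and 52 to 91 per SF clone.

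*KLF5* is induced by C/EBP-beta and C/EBP-delta early in differentiation and acts with them on the *PPARG2* promoter. It is found at chromosome 12, 47795482 to 47818776. *KLF5* had 23.8, 22.8, 25.0 and 22.0 CPM in IMF1 to IMF4, but 2.26, 9.26, 17.1 and 9.04 CPM in SF1 to SF4. All IMF values lay above all SF values, while the SF clones differed among themselves several-fold from SF1, the lowest, to SF3, the highest. The log2 fold change of 1.31 (SE 0.46) did not pass, with an edgeR adjusted p = 0.0708. It was called by DESeq2 (adjusted p = 0.0238) and by limma-voom (adjusted p = 0.0307). Without SF3 the log2 fold change was 1.75 (adjusted p = 0.0234), and without SF1 it was 0.98 (adjusted p = 0.0162).

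*KLF15* raises *PPARG* and the insulin-responsive glucose transporter gene *SLC2A4* in adipocytes, and in muscle and liver it controls the breakdown of amino acids. It occupies chromosome 22, 60612159 to 60624630. *KLF15* had few reads, with 7.44, 5.89, 5.71 and 6.04 CPM in IMF1 to IMF4 and 5.29, 2.75, 1.87 and 1.49 CPM in SF1 to SF4. SF1 was close to the lowest IMF clone, and the other SF clones were well below it. The log2 fold change of 1.14 (SE 0.37) did not pass (edgeR adjusted p = 0.0543). It passed with DESeq2 (adjusted p = 0.0183), with limma-voom (adjusted p = 0.016) and, without SF1, at 1.62 with an adjusted p = 0.00232. With the clone number as a replicate block, it passed at 1.29 (adjusted p = 0.0351), but whether the numbers pair the clones by animal is not known.

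*KLF4*, better known as a pluripotency factor, acts at the very start of adipogenesis on the *CEBPB* promoter. It lies on chromosome 8, 97174495 to 97179299, far from *KLF9*. *KLF4* had 32.3, 32.1, 33.0 and 30.7 CPM in IMF1 to IMF4, and 27.1, 56.5, 58.7 and 55.4 CPM in SF1 to SF4. SF2, SF3 and SF4 were well above the IMF clones, and SF1 was below them. IMF minus SF was -0.63 on the log2 scale (SE 0.22, edgeR adjusted p = 0.0694). Without SF1 it was -0.83 with an adjusted p = 6.78e-05, and it stayed under the fold threshold. DESeq2 on all 8 clones gave an adjusted p = 0.0287.

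*KLF11*, a cofactor of PPAR-gamma in the browning of human adipocytes, showed 11.03, 10.6, 12.5 and 10.3 CPM in IMF1 to IMF4 and 11.9, 21.3, 20.4 and 11.8 CPM in SF1 to SF4. Its gene is at chromosome 11, 87547143 to 87558811. SF2 and SF3 were high, while SF1 and SF4 lay among the IMF values. In log2 terms the difference was -0.56 (SE 0.22, edgeR adjusted p = 0.0937). It was -0.69 both without SF1 (adjusted p = 0.0404) and without SF4 (adjusted p = 0.0488). *KLF6* represses the preadipocyte gene *DLK1* and lies on chromosome 13, 44597302 to 44606045. *KLF6* had 116, 121, 115 and 112 CPM in IMF1 to IMF4, and 88.1, 129.8, 111 and 105 CPM in SF1 to SF4. The groups overlapped, with SF1 lowest and SF2 highest of the 8 clones. Its log2 fold change was 0.10, with a 95% fold interval of 0.894 to 1.28 (adjusted p = 0.574).

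None of the 3 members known to hold adipogenesis back passed both thresholds. *KLF10*, the TGF-beta-inducible early gene, lies on chromosome 14, 61770393 to 61776508. *KLF10* had 98.2, 97.9, 96.0 and 94.4 CPM in IMF1 to IMF4, and 44.7, 67.6, 75.6 and 59.8 CPM in SF1 to SF4. Every IMF clone was above every SF clone, and the IMF values differed from each other by very little. It differed by 0.64 on the log2 scale (SE 0.15, edgeR adjusted p = 0.0137), a 1.56-fold difference (95% interval 1.24 to 1.97) that stayed under the fold threshold. The adjusted p-value was under 0.05 in 16 of 17 alternatives, the exception being the test against the fold threshold itself.

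*KLF2* keeps preadipocytes undifferentiated by repressing *PPARG*, and in endothelium it is the main factor induced by blood flow. It lies on chromosome 7, 6684756 to 6687147. *KLF2* had 15.9, 17.1, 18.5 and 17.4 CPM in IMF1 to IMF4, and 27.0, 22.1, 15.8 and 20.2 CPM in SF1 to SF4. SF3 was the lowest of the 8 clones and SF1 the highest. Its log2 fold change was -0.30 (SE 0.15, edgeR adjusted p = 0.179), and without SF3 it was -0.46 (adjusted p = 0.0287).

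*KLF3* recruits the corepressor CtBP to the *CEBPA* promoter and lies on chromosome 6, 57942847 to 57978356. *KLF3* had 35.0, 42.5, 40.7 and 35.9 CPM in IMF1 to IMF4, and 21.1, 37.4, 37.2 and 36.5 CPM in SF1 to SF4. Apart from SF1, which was lowest, the SF values lay within the IMF range. Its log2 fold change was 0.22 (SE 0.18, edgeR adjusted p = 0.415) with a 95% fold interval of 0.877 to 1.55, and without SF1 it was 0.06 (adjusted p = 0.676).

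**Figure D2:**
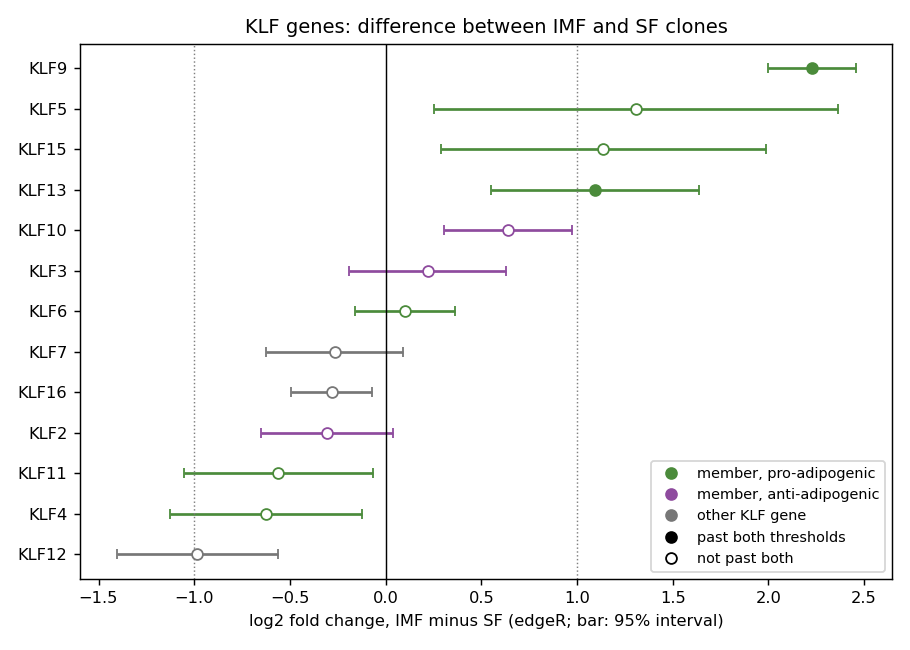
Log2 fold change of IMF minus SF clones (4 each) for the 13 KLF genes tested, from edgeR, with bars for the unadjusted 95% interval. Colours give the reported adipogenic role, filled points passed both thresholds and dotted lines mark a log2 fold change of 1 in either direction. *KLF9* stands apart at 2.23 with a narrow interval, and *KLF12* lies at the other end at -0.98.

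Grouped by role, 2 of the 7 pro-adipogenic members passed both thresholds, both higher in IMF (background 4.78% higher, 8.82% in either direction), and the median log2 fold change of the 7 was 1.09. Of these 7, 4 did not overlap between the groups, all with IMF above SF (background 32.1% in either direction, 3301 of 18339 genes in this one). The 2 with a negative log2 fold change, *KLF4* and *KLF11*, overlapped. None of the 3 anti-adipogenic members passed both thresholds in edgeR, DESeq2 or limma-voom, and 1 of the 3, *KLF10*, had an unadjusted p under 0.05, beside 6 of the 7 pro-adipogenic members and 6959 of all 18339 genes. Their median log2 fold change was 0.22, and *KLF10* alone of the 3 did not overlap. Whether the roles differ in their response was not tested.

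The 3 other KLF genes tested all had negative log2 fold changes, with a median of -0.28. *KLF12*, a CtBP-dependent repressor, lies on chromosome 12, 48526365 to 48802837. *KLF12* had 4.75, 5.07, 4.76 and 3.81 CPM in IMF1 to IMF4, and 6.93, 7.96, 11.4 and 10.1 CPM in SF1 to SF4. All IMF clones were below all SF clones. Its log2 fold change of -0.98 (SE 0.18, edgeR adjusted p = 0.00559) missed the fold threshold narrowly. It passed both thresholds in 6 of 17 alternatives, among them without IMF2 (-1.06), without IMF3 (-1.03), without SF1 (-1.09) and without SF2 (-1.04). *KLF16* had 33.9 to 44.0 CPM in IMF and 44.3 to 51.5 CPM in SF, with a log2 fold change of -0.28 (SE 0.09, adjusted p = 0.0548). *KLF7*, which inhibits adipogenesis in human preadipocytes, overlapped between the groups with a log2 fold change of -0.26 (adjusted p = 0.257). *KLF8* had 18 counts in all 8 clones together, 12 of them in SF3, and was not tested. *KLF1*, *KLF14* and *KLF17* were not analysed here.

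The order of the members by level was compared in TPM, which divides by gene length. In IMF clones *KLF10* led with 55.3 ± 4.34 TPM, followed by *KLF9* (43.1 ± 3.73 TPM) and *KLF6* (40.2 ± 2.95 TPM). *KLF9* and *KLF6* overlapped, and *KLF10* lay above both in all 4 clones. *KLF4* (18.3 TPM) and *KLF2* (17.0 TPM) came next and overlapped each other. *KLF3* (11.5 TPM) and *KLF5* (11.2 TPM) also overlapped, as did *KLF5* and *KLF13* (9.55 TPM). *KLF11* (4.27 TPM) and *KLF15* (4.22 TPM) were lowest and overlapped. In SF clones *KLF6* (37.3 ± 8.57 TPM), *KLF10* (35.2 ± 9.49 TPM) and *KLF4* (28.0 ± 9.27 TPM) led with overlapping ranges. *KLF2* followed at 20.7 TPM, overlapped *KLF4* and was separated from *KLF3* (9.82 TPM) below it. Each later neighbour overlapped the next, from *KLF9* (9.05 TPM), *KLF11* (6.30 TPM) and *KLF5* (4.48 TPM) to *KLF13* (4.40 TPM) and *KLF15* (1.90 TPM). *KLF9* was thus second in IMF and sixth in SF, the largest move in rank of any member. The deposited length of *KLF9* is 1329 bases and that of *KLF13* 1187 bases, shorter than for the other 8 members, so these TPM ranks depend on the annotated transcripts.

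Added over the 13 KLF genes tested, the transcript pool was 235 to 279.6 TPM in IMF and 175 to 239 TPM in SF. *KLF9* made up 16.9% of the pool on average in IMF and 3.47% to 5.07% in the 4 SF clones. *KLF10* held 21.0% to 22.2% in IMF and 14.2% to 18.9% in SF. *KLF4* held 6.97% to 7.29% in IMF, and 8.58% in SF1 against 14.5% to 14.7% in SF2, SF3 and SF4. *KLF6* held 15.3% to 16.4% in IMF and 16.8% to 20.3% in SF. A share of a pool depends on its other members, and in CPM *KLF6* overlapped between the groups.

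**Figure D3:**
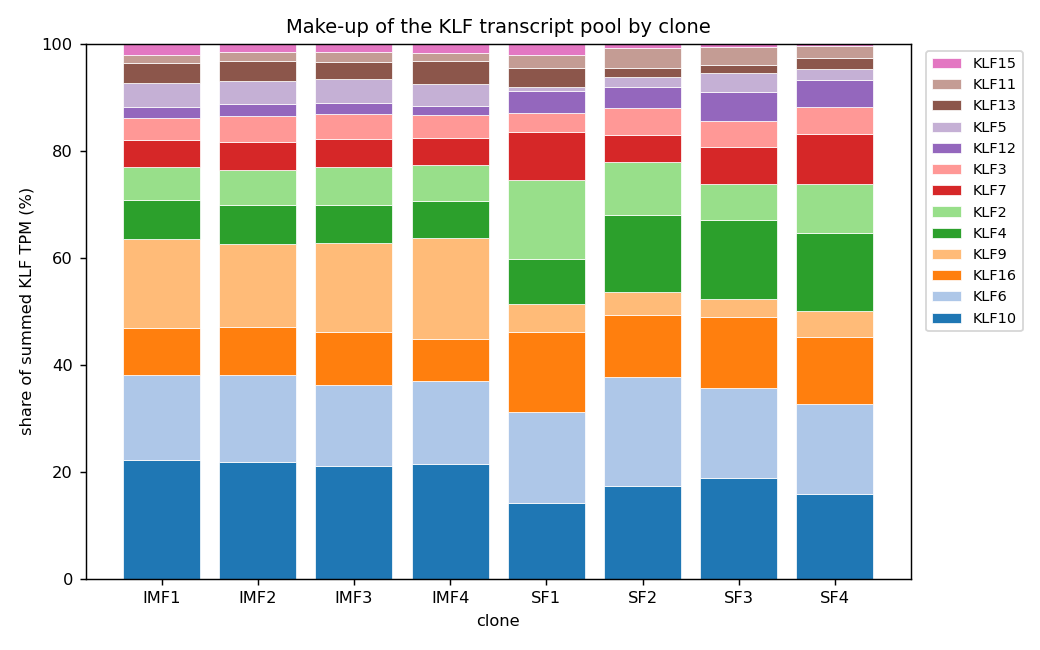
Share of each KLF gene in the summed TPM of the 13 KLF genes tested, in percent, with 1 stacked bar for each clone. The 4 IMF bars look alike. *KLF9* takes 16.9% of the pool on average in IMF and at most 5.07% in an SF clone, and *KLF4*, *KLF6*, *KLF11*, *KLF12* and *KLF16* take a larger share of the pool, though not always a higher level, in every SF clone than in any IMF clone.

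Relative to their means, the members varied more among the SF clones than among the IMF clones. The coefficient of variation over 4 clones (SD divided by the mean of CPM) had a median of 6.44% over the members in IMF and 27.2% in SF, and all 10 members varied more in SF. Over 15380 genes with a mean of at least 1 CPM the medians were 8.45% and 17.0%, and 70.5% of these genes varied more in SF. *KLF5* (64.4%) and *KLF15* (60.0%) varied most in SF, and *KLF9* varied least at 10.8%. SF1 was the lowest SF clone in 5 members (*KLF3*, *KLF4*, *KLF5*, *KLF6* and *KLF10*) and the highest in 3 (*KLF2*, *KLF13* and *KLF15*).

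**Figure D4:**
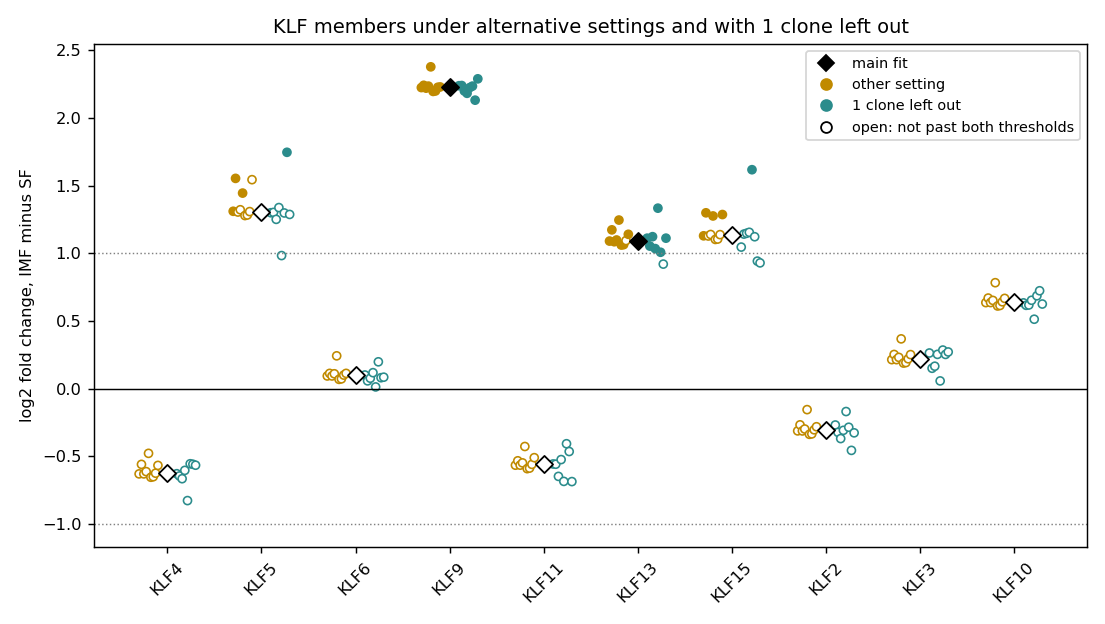
Log2 fold change of each member, IMF minus SF, in the main fit (diamonds), under 9 other settings (left points) and with each of the 8 clones left out (right points). Filled symbols passed both thresholds. *KLF9* is filled throughout between 2.13 and 2.38, whereas *KLF5*, *KLF13* and *KLF15* range from 0.92 to 1.75 and change their call with the setting or clone.

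The genes that KLF factors act on in adipogenesis did not move as one group. For this and the following lists, the shares of all genes were 8.82% by both thresholds (4.78% higher and 4.04% lower in IMF) and 25.8% by the adjusted p-value alone. Of 10 tested genes of the adipogenic cascade, 2 were higher and 1 lower in IMF, and their median log2 fold change was 0.10. *CEBPD*, an early C/EBP factor upstream of *KLF5*, had 279, 243, 249 and 229.9 TPM in IMF1 to IMF4 and 70.3, 155, 116 and 85.3 TPM in SF1 to SF4. It was higher in IMF with a log2 fold change of 1.23 (SE 0.19, edgeR adjusted p = 0.00209). *PPARG* went the other way, with 0.937 to 1.55 TPM in IMF and 2.19 to 3.68 TPM in SF (log2 fold change -1.35, SE 0.23, adjusted p = 0.00365). *FABP4*, the fatty acid carrier induced in maturing adipocytes, had 20.5 to 30.9 TPM in IMF and at most 0.897 TPM in SF, with a log2 fold change of 5.70 (SE 0.71, adjusted p = 0.000787). It is also present in capillary endothelium. *CEBPB* had a log2 fold change of 0.39 (adjusted p = 0.0562), and *CEBPA* one of 0.01 (adjusted p = 0.983).

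Genes of the glucocorticoid response, to which *KLF9* and *KLF15* are also counted in textbooks, were examined as a list of 8 others. By both thresholds 3 were higher and none lower in IMF, and the median log2 fold change was 0.85, also with *ZBTB16* at its lower bound. *FKBP5*, the receptor's co-chaperone, had 35.2, 32.3, 38.2 and 29.2 TPM in IMF1 to IMF4 and 5.38, 2.93, 3.89 and 2.01 TPM in SF1 to SF4. All IMF clones lay far above SF (log2 fold change 3.23, SE 0.26, edgeR adjusted p = 8.08e-05). *PER1* had 3.71 to 4.58 TPM in IMF and 0.996 to 1.42 TPM in SF (log2 fold change 1.69, SE 0.11, adjusted p = 2.91e-05). *ZBTB16* had 0.916 to 1.26 TPM in IMF and 0 counts in each SF clone, which makes it at least 37.8-fold higher when 3 counts are set in each SF clone. *ERRFI1*, a feedback inhibitor of the EGF receptor, lay just under the fold threshold (log2 fold change 1.00, SE 0.25, adjusted p = 0.0214). *NR3C1*, the glucocorticoid receptor gene itself, was 12.0 to 14.3 TPM in IMF and 13.2 to 22.9 TPM in SF by length-scaled level, with a log2 fold change of -0.48 (adjusted p = 0.0474). *TSC22D3* (adjusted p = 0.107) and *SGK1* (adjusted p = 0.977), both known receptor targets, overlapped between the groups.

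Fuel and amino acid genes tied to *KLF15* in muscle and liver showed 3 of 8 higher in IMF and none lower by both thresholds (median log2 fold change 0.58). *PDK4*, which restrains glucose oxidation, had 2.81 to 3.46 TPM in IMF and 0.483 to 0.880 TPM in SF, a log2 fold change of 2.27 (SE 0.20, edgeR adjusted p = 0.000126). *ACSS2*, an acetyl-CoA synthetase, differed by 3.13 (SE 0.37, adjusted p = 0.000644) and *PRODH*, which degrades proline, by 3.41 (SE 0.42, adjusted p = 0.000767). *BCAT2*, the first step of branched-chain amino acid breakdown, was lower in IMF at -0.72 (SE 0.12, adjusted p = 0.00378), under the fold threshold. Skeletal muscle also expresses these genes, and the muscle marker sums given above moved with them.

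**Figure D5:**
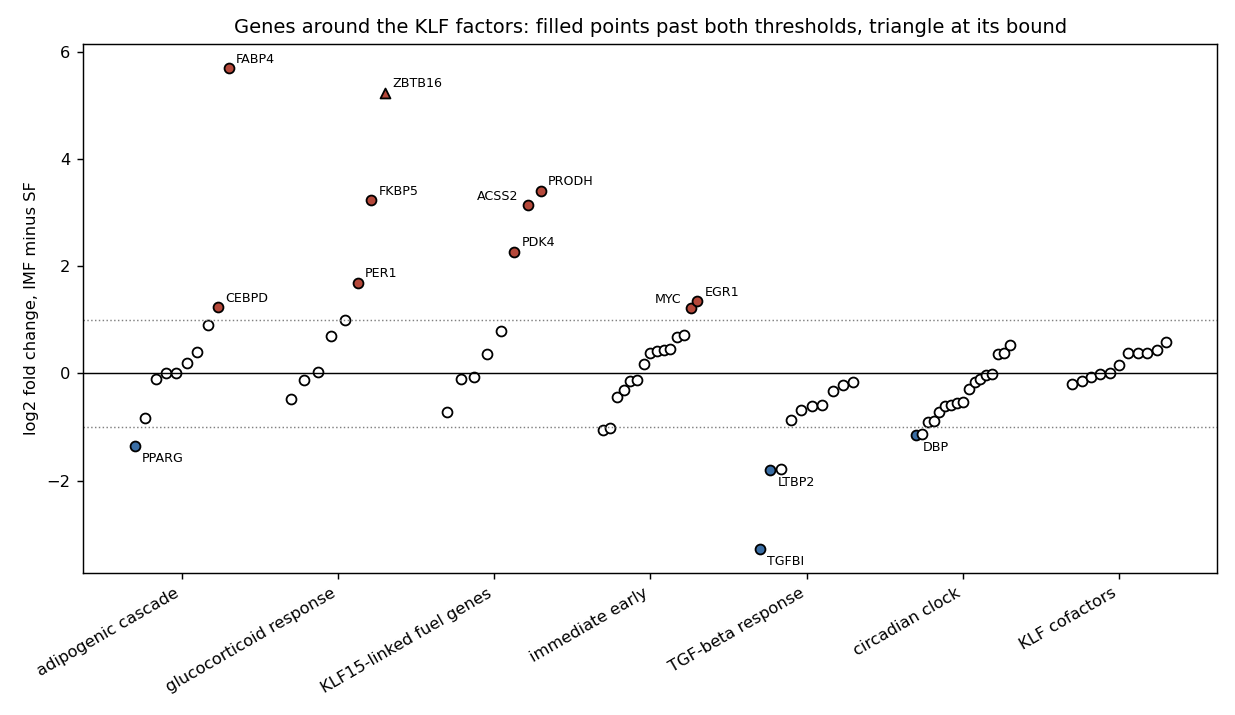
Log2 fold change of IMF minus SF clones for the tested genes of 7 lists around the KLF factors, each point a gene, ordered by value within its list. Filled points passed both thresholds (red higher, blue lower in IMF), dotted lines mark a log2 fold change of 1, and the triangle is *ZBTB16* at its lower bound. *CEBPD* and *FABP4* lie above 1 and *PPARG* below -1 within the same list.

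Signals that induce KLF genes were looked at in the same way. Of 15 immediate early genes, 2 were higher in IMF, *EGR1* (log2 fold change 1.34, SE 0.25, edgeR adjusted p = 0.0055) and *MYC* (1.21, SE 0.25, adjusted p = 0.00874), with a list median of 0.38. Of all genes, 8.82% passed in either direction and 4.78% were higher in IMF, and whether the list differs from that was not tested. By the adjusted p-value alone 5 were higher and 1 was lower (background 25.8%). Without SF2, *MYC* was at 0.99, under the fold threshold. Of 10 TGF-beta response genes, the pathway that induces *KLF10*, none was higher and 2 were lower in IMF, and all 10 had a negative log2 fold change with a median of -0.65. *LTBP2*, which binds latent TGF-beta complexes in the matrix, had 109.8 to 133 TPM in IMF and 379 to 456 TPM in SF (log2 fold change -1.80, SE 0.10, adjusted p = 9.65e-06). *TGFBI* was lower by the main fit (log2 fold change -3.27, SE 0.82, adjusted p = 0.0204), but its adjusted p-value was above 0.05 when any 1 of the 4 IMF clones was left out, at 0.0533 to 0.0567. SF3 was at 893 TPM against 36.9 to 184 TPM in the other SF clones, and without SF3 the log2 fold change of *TGFBI* was -2.02. *KLF10* had the opposite sign to all 10 genes of this list.

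Of 17 circadian clock symbols, a system in which *KLF9*, *KLF10* and *KLF15* oscillate, *DBP* alone passed both thresholds in the main fit, with a log2 fold change of -1.15 (SE 0.20, edgeR adjusted p = 0.00413). By the adjusted p-value alone 7 were lower and 1 was higher (*NFIL3*), beside 25.8% of all genes, and the list median was -0.54. *PER1*, also a core clock gene, was counted in the glucocorticoid list above and was higher in IMF. The clock count of 1 became 2 without SF1 (adding *PER3*) and 2 without SF2 (adding *NPAS2*). *ARNTL* and *BMAL1*, which are names of the same gene, were listed separately in the table and are both counted. Of 11 corepressor, histone-modifying and other cofactor genes of KLF proteins, none passed both thresholds in edgeR, DESeq2 or limma-voom, and the list median was 0.15. By the adjusted p-value alone 5 of the 11 passed (background 25.8%), all of them higher in IMF, including *HDAC2* (log2 fold change 0.58, adjusted p = 0.00148) and *CTBP2* (0.37, adjusted p = 0.00948), the partner of *KLF3* and *KLF12*. Of 7 tested SP genes, the sister family with the same zinc fingers, only *SP9* passed in the main fit, joined by *SP7* when SF1 was left out. The list median was -0.29. *SP9* had 4.31 to 7.71 TPM in SF and 0 counts in all IMF clones, at least 38.9-fold higher in SF when 3 counts are set in each IMF clone.

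Genes linked to *KLF2* and *KLF4* in vessels were also listed. The *KLF2* list holds genes that the factor induces, such as *NOS3*, genes that it represses, such as *SELE*, and the kinase and MEF2 genes upstream of it, so it has no single direction. Of its 12 tested genes, 5 were higher in IMF, and the list median was 0.21. Of the endothelial markers, 13 of 14 were higher in IMF too, and their part in this count was not tested. *CAV1*, the caveolar coat gene, had 222 to 260.3 TPM in IMF and 80.2 to 147 TPM in SF (log2 fold change 1.06, SE 0.15, edgeR adjusted p = 0.00168), and 0.92 without SF1. *EDN1* had 22.3 to 27.6 TPM in IMF and at most 0.246 TPM in SF. *NOS3* reached at most 0.0382 TPM in an SF clone, and *SELE* had 0 counts in each SF clone and was at least 152-fold higher in IMF by the same floor. Of 8 smooth muscle genes that *KLF4* represses in vessel walls, 1 was higher and 4 lower in IMF, with a list median of -0.65. *TAGLN* (log2 fold change -1.09), *ACTA2* (-1.68), *CNN1* (-2.03) and *LMOD1* (-1.85) were lower in IMF, with adjusted p-values from 0.00541 to 0.0333, and *MYH11* was higher in the main fit (1.59, adjusted p = 0.0314). *MYH11* passed in 9 of 17 alternatives, and its adjusted p-value was 0.0593 to 0.0766 without any 1 of the IMF clones, SF2, SF3 or SF4, whereas without SF1 its log2 fold change was 2.30. *ACTA2* overlapped between the groups and passed in only 8 of 17 alternatives, and without SF1 *TAGLN* was at -0.81. The list count of 5 became 3 without any 1 of the IMF clones, SF1 or SF4. Among 10 cell cycle genes, which include the inhibitors *CDKN1A* and *CDKN1B*, 1 passed, *CCND1*, lower in IMF at -1.10 (adjusted p = 0.0175) and at -0.82 without SF4, and the list median was 0.38. By the adjusted p-value alone 4 were higher in IMF (*PCNA*, *MCM2*, *CCNB1* and the inhibitor *CDKN1A*) and 1 was lower (background 25.8%).

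The genes whose log2 CPM followed the 2 called members most closely over the 8 clones were found among 15379 other genes with a mean of at least 1 CPM. For *KLF9* these were *FRMD3* (Pearson r = 0.998), *CDH5* (r = 0.997) and *PERP* (r = 0.997), and the gene ranked 100 still had r = 0.991. For *KLF13* they were *CSNK1E* (r = 0.991), *SLC2A3* (r = 0.987) and *RASIP1* (r = 0.986), and the gene ranked 100 had r = 0.952. With 2 separate groups of 4 clones, r mostly reflects the difference between the groups, and the points share libraries and scaling, so these are descriptions only.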

How the data were processed

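The authors trimmed reads with Trimmomatic 0.39 and counted them per gene with featureCounts 2.0.2, and they deposited raw counts for each clone with gene lengths. The methods name HISAT2 and ARS-UCD2.0, whereas the submitters' processing notes name STAR 2.7.11a. Groups were taken from the sample titles. The deposited group means and DESeq2 columns were not used. One row without a gene name (0.0148% to 0.0209% of counts) was left out. Genes with at least 20 counts in total entered edgeR 4.0.16 (R 4.3.3, TMM, two-sided quasi-likelihood test, Benjamini-Hochberg adjustment over 18339 genes). CPM used TMM factors, and TPM the deposited lengths. Gene positions came from RefSeq on ARS-UCD2.0, with all 14 listed KLF symbols matched. Alternatives were DESeq2 1.42.0, limma-voom (limma 3.58.1), other scalings and filters, testing against the fold threshold itself, a replicate block and leaving out each clone. The fits were tested on simulated data. All members were named, from other lists up to 4 genes past both thresholds by mean TPM, and from marker lists the 4 most abundant. Other named genes were chosen after their values were seen. The members and lists were chosen with earlier results of these data known. Floors of 3 counts cover counting error only. The main fit had no replicate block. No clone pair of a group agreed within sampling noise.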

Additional observations from a re-analysis of the deposited data

Results flagged for a closer look

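In 20 groups of 4 clones (10 members in IMF and in SF), 2 held a clone farther from the other 3 than Dixon's 95% critical value allows, and chance gives about 1 such group in 20. Both were SF1. *KLF3* was at 21.1 CPM in SF1 against 36.5 to 37.4 CPM in the other SF clones (ratio 0.941). *KLF4* was at 27.1 CPM in SF1 against 55.4 to 58.7 CPM (ratio 0.894). Without SF1 the log2 fold change of *KLF4* was -0.83 and its edgeR adjusted p-value 6.78e-05. What sets SF1 apart was not tested.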

How the results depend on the processing

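All 10 members kept the sign of their log2 fold change in all 17 alternatives, and *KLF9* passed both thresholds in each. The count of 2 members past both thresholds became 4 with DESeq2, 4 with limma-voom and 4 with total counts alone (each adding *KLF5* and *KLF15*), and 1 (*KLF9*) when tested against a log2 fold change of 1, a setting that by construction asks for more and also lowered the count over all genes to 631. The cause of the other changes was not tested. Scaling by total counts alone moved the median of all genes by 0.15 on the log2 scale. Leaving out each clone gave 2 to 3 members past both thresholds, and 1332 to 1643 genes in all. With the clone number as a replicate block, 1489 genes passed, 1356 of them shared with the main 1618, and 3 members passed (*KLF9*, *KLF13* and *KLF15*). Clones of the same number did not all deviate together (r from -0.01 to 0.14 over 4 pairs), and not every clone correlated best with its own number. Ordering the members by CPM in place of TPM left 6 of 20 positions the same. Counts were low for *KLF13* (52 to 91 per SF clone) and *KLF15* (27 to 103), so counting error is larger there.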
